A study of Homo sapiens with 2 samples.

Results

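BNIP3, BNIP3L, FUNDC1 and FUNDC2 encode mitochondrial outer membrane proteins of the receptor families that mark mitochondria for removal, and the C-to-U editing of their mRNAs was examined in 2 long-read libraries of HEK293T cells. They are 4 of the 12178 genes with an edited position in either library. A gene was identified by assigning each locus of the deposited isoform models to the annotated gene with the largest exonic overlap on its strand, and all edited positions of the 4 loci were then taken from both libraries. Each of the 4 loci overlapped 1 annotated gene. BNIP3 was chosen by the ratio of its listed positions in these same libraries, among the highest for RBFOX2 over enzyme-only, so its ratio is given as a description. BNIP3L, FUNDC1 and FUNDC2 were taken as the relatives or functional counterparts of BNIP3 and not for their ratios.

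Mitophagy receptors sit in the outer membrane of the mitochondrion and carry a short cytosolic motif that binds the LC3 and GABARAP proteins of the forming autophagosome. BNIP3 and BNIP3L (also called NIX) are related BH3-like proteins of the BCL2 family, anchored by a C-terminal transmembrane segment, and BNIP3 is a classical target of the hypoxia factor HIF1. FUNDC1 is a receptor of hypoxia-induced mitophagy whose binding to LC3 is controlled by phosphorylation, and FUNDC2 is its paralog.

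HEK293T is a transformed human embryonic kidney line, entered in the labels as the cell line HEK293XT and the tissue kidney. Per the methods of the study, the cells were fixed, with methanol or paraformaldehyde (which of them for these libraries was not stated), and incubated with purified APOBEC1, an enzyme that deaminates cytidine, fused to a nanobody against rabbit IgG. In the RBFOX2 library the fusion was directed by a rabbit antibody to RBFOX2, which regulates splicing and recognises UGCAUG, or the shorter GCAUG, in RNA. In the enzyme-only library the same fusion was applied without that antibody, which gives the background of editing. The labels describe the libraries as in situ RBFOX2-APOBEC1 STAMP and in situ APOBEC1 only STAMP. The antibody and the nanobody are thus taken from the methods and not from these descriptions. Both libraries came from total RNA of the same line, read as full-length cDNA by PacBio sequencing. There was 1 library per group, so every difference below is between these libraries, not between conditions, and no p-value was computed. Intervals are exact Clopper-Pearson 95% intervals. They cover counting error only, since the tables hold no molecular identifiers.

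The stretches below are a selection that carries positions of BNIP3, FUNDC1 and FUNDC2 with 2 or more converted reads, or neighbouring positions. Not shown are 131968122 of BNIP3, with 4 converted reads, and 26410550 of BNIP3L, with 3. The stretches are 30-nt windows of the transcribed strand in hg38, written 5′ to 3′ with T for U. Capitals mark each cytosine edited in either library at the minimum of converted reads given below and, where the window holds it, GCATG, the DNA form of GCAUG.
BNIP3 3′UTR, chr10:131968293-131968322, minus strand, 4 and 5 converted reads in this order, both RBFOX2: GCATGtcagaCtgattaatgtctaCtgtga
BNIP3 3′UTR, chr10:131968173-131968202, minus strand, 3 converted reads at each position, both RBFOX2: taaaaattatctgCaaCcttaattcagctg
BNIP3 coding exon 5, chr10:131970647-131970676, minus strand, 2 converted reads at each position, both RBFOX2: atctctgctgctctCtCatttgctggccat
FUNDC1 3′UTR, chrX:44523834-44523863, minus strand, 3 and 1 converted reads, both RBFOX2: cttagcgaaatattCtCtttttatttaaat
FUNDC1 3′UTR, chrX:44524060-44524089, minus strand, positions of both libraries, the middle one from enzyme-only: aaCtagctggacaataCtcaattcacaaCt
FUNDC1 coding exon 2, chrX:44542078-44542107, minus strand, 1 converted read at each position, both RBFOX2: ttgaagaCtatgaaagtgatgaCgactctt
FUNDC2 end of the coding sequence, chrX:155054634-155054663, plus strand, the first position from RBFOX2 and the second from enzyme-only: ggatttttCggaggctttCtgcttgGCATG

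A position entered the deposited tables if its converted reads made up more than 0.002 of the reads of its gene. A gene of 500 or more reads in a library therefore needed at least 2 converted reads there, rising with its reads. A gene below 500 reads needed 1. BNIP3 had 445 RBFOX2 reads and 522 enzyme-only reads, on opposite sides of that depth. FUNDC2 had 505 and 420, also on opposite sides but in the other order. BNIP3L, with 142 and 141 reads, and FUNDC1, with 152 and 131, were below it in both. Positions were therefore counted at the same minimum in both libraries, 2 converted reads for BNIP3 and FUNDC2 and 1 for BNIP3L and FUNDC1. These reads are counts per gene that were not set against transcript length, so they rank the libraries of a gene and not the genes.

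At the common minimum BNIP3, BNIP3L and FUNDC1 each had about 3 times as many edited positions in the RBFOX2 library as in the enzyme-only library, and FUNDC2 had as many in one as in the other. BNIP3 had 10 RBFOX2 positions and 3 enzyme-only positions. BNIP3L had 38 and 14. FUNDC1 had 25 and 8. FUNDC2 had 3 in each, and the 4 genes together had 76 and 28. Of these, 1 position of BNIP3 and 3 of BNIP3L met the minimum in both libraries, and none of FUNDC1 or FUNDC2 did. The share of positions met in both libraries over all genes was not computed, so these counts are not read as a trait of the 4 genes.

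**Figure D1:**
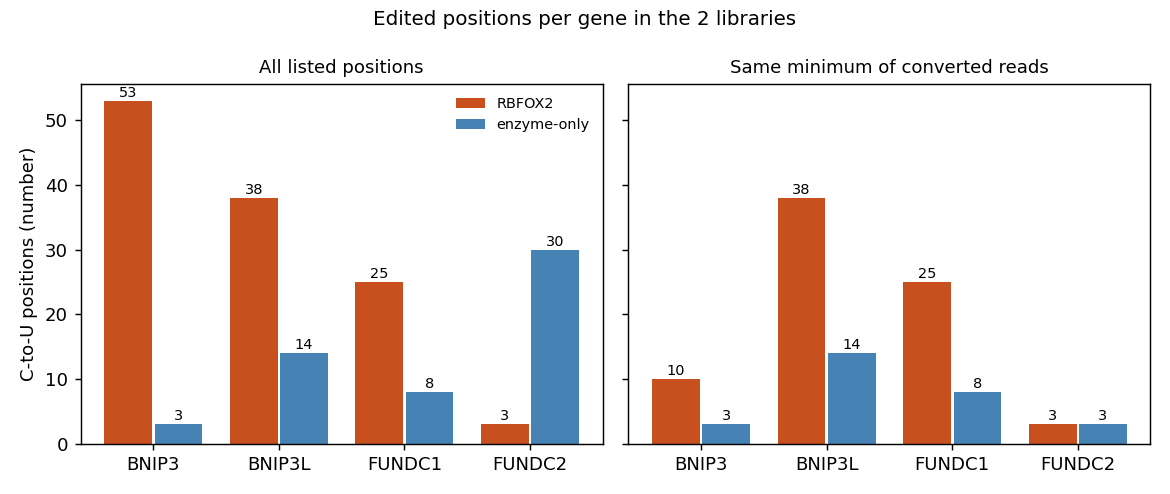
Number of C-to-U positions (y axis) in each of the 4 genes (x axis) for the RBFOX2 and enzyme-only libraries, 1 library each and no error bars; all listed positions are on the left and those at the same minimum of converted reads on the right. The bars of BNIP3 went from 53 and 3 to 10 and 3, and those of FUNDC2 from 3 and 30 to 3 and 3, while BNIP3L and FUNDC1 stood at the same height in both panels.

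The counts as listed differed for BNIP3 and FUNDC2 in the way their depths did. BNIP3 was listed with 53 positions against 3, and 43 of the 53 rested on 1 converted read, a value that the enzyme-only table could not hold for this gene. Just inside the minimum lay 5 RBFOX2 positions of BNIP3 with 2 converted reads. All 3 enzyme-only positions of BNIP3 were also listed in the RBFOX2 library, with 1, 2 and 1 converted reads. FUNDC2 was listed with 3 positions against 30, and 27 of the 30 rested on 1 converted read. Scaled as below, the listed counts would put BNIP3 at a log2 ratio of 3.69 and FUNDC2 at −3.36.

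The number of positions was divided between libraries and scaled by the totals at the common minimum over the 8203 genes listed in both, 116768 for RBFOX2 and 93388 for enzyme-only, a ratio of 1.25. On this log2 scale, with a pseudocount of 0.5, the ratio of RBFOX2 over enzyme-only was 1.26 for BNIP3 (95% interval −0.54 to 3.91). It was 1.09 for BNIP3L (0.20 to 2.12), 1.26 for FUNDC1 (0.13 to 2.68) and −0.32 for FUNDC2 (−3.22 to 2.58). The intervals of BNIP3L and FUNDC1 lay above 0, and those of BNIP3 and FUNDC2 included it. All of them take positions as independent, although 1 full-length read can carry several, and which read carried which position was not given. A position met in both libraries also counts on both sides. The intervals may thus be too narrow, and lying above 0 is not a test. With the reads of each gene in place of the library totals, the ratios were 1.82 (0.01 to 4.47), 1.40 (0.51 to 2.43), 1.37 (0.24 to 2.79) and −0.27 (−3.17 to 2.63), in the same order of genes. With at least 2 converted reads required in every gene, BNIP3 stood at 0.73 (−1.08 to 3.38) and FUNDC2 at −0.86 (−3.76 to 2.05). BNIP3L then had 7 positions against 0 and FUNDC1 4 against 0, with lower bounds of −0.33 and −1.45, so no interval lay above 0, and neither gene had the positions needed for a call.

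BNIP3L and FUNDC1 had enough positions, at least 20 over both libraries, to be placed among 3688 genes of that kind. Both were over 2-fold higher in the RBFOX2 library, as were 12.8% of those genes, and 11.1% were over 2-fold lower. With 12.8% of all genes past the same line, these calls do not set the members apart as a group. A ratio above that of BNIP3L was found in 10.7% of the genes, and above that of FUNDC1 in 7.43%. The median over all genes tested was 0.04. BNIP3, with 13 positions, entered only with a minimum of 10, where it was over 2-fold higher as were 15.5% of 5556 genes, and 14.1% were over 2-fold lower. FUNDC2 had 6 positions and entered neither.

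**Figure D2:**
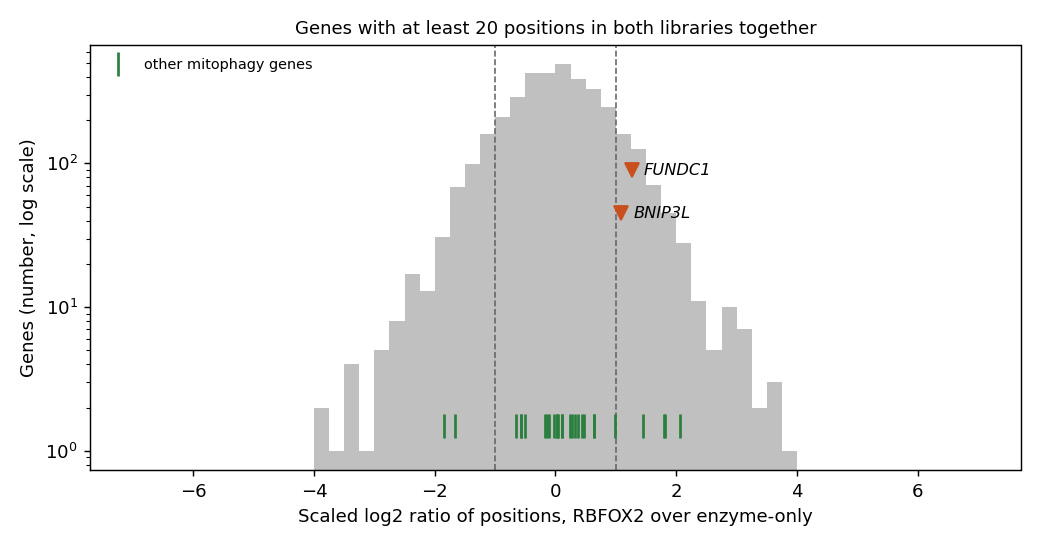
Histogram of the scaled log2 ratio of positions, RBFOX2 over enzyme-only (x axis), for the 3688 genes with at least 20 positions (y axis, number of genes, log scale); dashed lines stand at 2-fold, triangles mark BNIP3L and FUNDC1 (their height carries no value) and green ticks mark other mitophagy genes. BNIP3L at 1.09 and FUNDC1 at 1.26 lay just past the upper line, within the right slope of the distribution.

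The strength of editing was also compared, as converted reads summed over the same positions. BNIP3 had 29 converted reads with RBFOX2 and 6 with enzyme-only, or 6.52 and 1.15 per 100 reads of the gene, a log2 ratio of 2.50 (1.21 to 4.06). BNIP3L had 46 and 14, or 32.4 and 9.93 per 100, a log2 ratio of 1.71 (0.82 to 2.68). FUNDC1 had 30 and 8, or 19.7 and 6.11 per 100, a log2 ratio of 1.69 (0.53 to 3.03). For BNIP3 these are largely the positions it was chosen by, so its value is a description. FUNDC2 had 6 converted reads in each library, 1.19 and 1.43 per 100 reads, a log2 ratio of −0.27 (−2.17 to 1.64). These ratios are per read of the gene and are not scaled by the library totals, and over all genes they leaned towards RBFOX2. Their median over the 3688 genes with at least 20 positions was 0.24, and 62.5% of those genes were above 0. A ratio above that of BNIP3L was found in 6.40% of the genes, and above that of FUNDC1 in 6.51%. Converted reads of 1 position can be copies of 1 molecule, and 1 read can carry several positions, so their intervals may be too narrow.

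Positions converted in 2 or more reads were counted next, and over all genes there were 20231 of them in the RBFOX2 table (16.6% of its positions) and 12204 in the enzyme-only table (11.8%). BNIP3 had 10 of them with RBFOX2 and 3 with enzyme-only, BNIP3L had 7 and 0, FUNDC1 had 4 and 0, and FUNDC2 had 3 and 3. The genes together had 24 and 6, of which BNIP3, chosen on its ratio, gave 10 and 3. Positions with 3 or more converted reads were not counted over all genes, so the counts that follow have no background. None of the enzyme-only positions had more than 2 converted reads, and 7 RBFOX2 positions had 3 to 5, most of them in BNIP3. In BNIP3 these were 131968298 with 5 of 445 reads (1.12%, 0.366 to 2.60), 131968312 and 131968122 with 4 each (0.899%, 0.245 to 2.29), and 131968189 and 131968186 with 3 each (0.674%, 0.139 to 1.96). BNIP3L had 1 such position, 26410550, with 3 of 142 reads (2.11%, 0.438 to 6.05). FUNDC1 also had 1, 44523849, with 3 of 152 reads (1.97%, 0.409 to 5.66). The denominator is all reads of the gene, including any that do not reach the position, so each share is a lower value than the share of reads over the position.

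Editing of the 4 mRNAs lay mostly in the 3′UTR in the RBFOX2 library. There 58 of 76 positions (76.3%, 65.2 to 85.3) were in the 3′UTR and 18 in coding sequence. In the enzyme-only library 17 of 28 (60.7%, 40.6 to 78.5) were in the 3′UTR, 10 in coding sequence and 1 in an intron. The 3′UTR held 46.4% of the 2025 exonic cytosines of the loci. The RBFOX2 share lay above that value and the enzyme-only interval included it, but the intervals of the libraries overlapped each other. The genes differed. In BNIP3L, with 38 of the 76 positions, 76.3% (59.8 to 88.6) lay in the 3′UTR against 69.7% of its cytosines. The RBFOX2 and cytosine shares were 80.0% and 34.8% in BNIP3, 76.0% and 20.4% in FUNDC1, and 66.7% and 46.5% in FUNDC2. Of the exonic cytosines of the FUNDC1 models, 44.4% lay in annotated introns. The number of reads over each position was not given, so the part of uneven coverage along the transcripts was not tested.

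BNIP3 lies on chromosome 10, minus strand, 131967684 to 131981967 in hg38 (ENSG00000176171.12), with 6 exons in its principal transcript and a 3′UTR of 840 nt. Its 8 RBFOX2 positions in the 3′UTR fell 212 to 447 nt after the stop codon, a span of 236 nt that held 25 of the 130 cytosines of the 3′UTR. None of the 27 cytosines in the first 160 nt after the stop codon was edited at the minimum. The next 138 nt held 3 RBFOX2 positions among 14 cytosines, the 147 nt after those held 4 among 18, and the last 392 nt held 1 among 71. Of the 3 enzyme-only positions, those 251 and 382 nt after the stop codon lay within that span and the one at 495 nt lay past it. Of the 11 isoform models of BNIP3, 10 reached the first 160 nt, 8 the next part, 7 the part after that and 3 the last. The models carry no read counts, so the coverage of these parts was not known and its role was not tested. Positions with 1 converted read in the RBFOX2 library were spread over a wider range, and 5 of them fell in the first 160 nt.

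**Figure D3:**
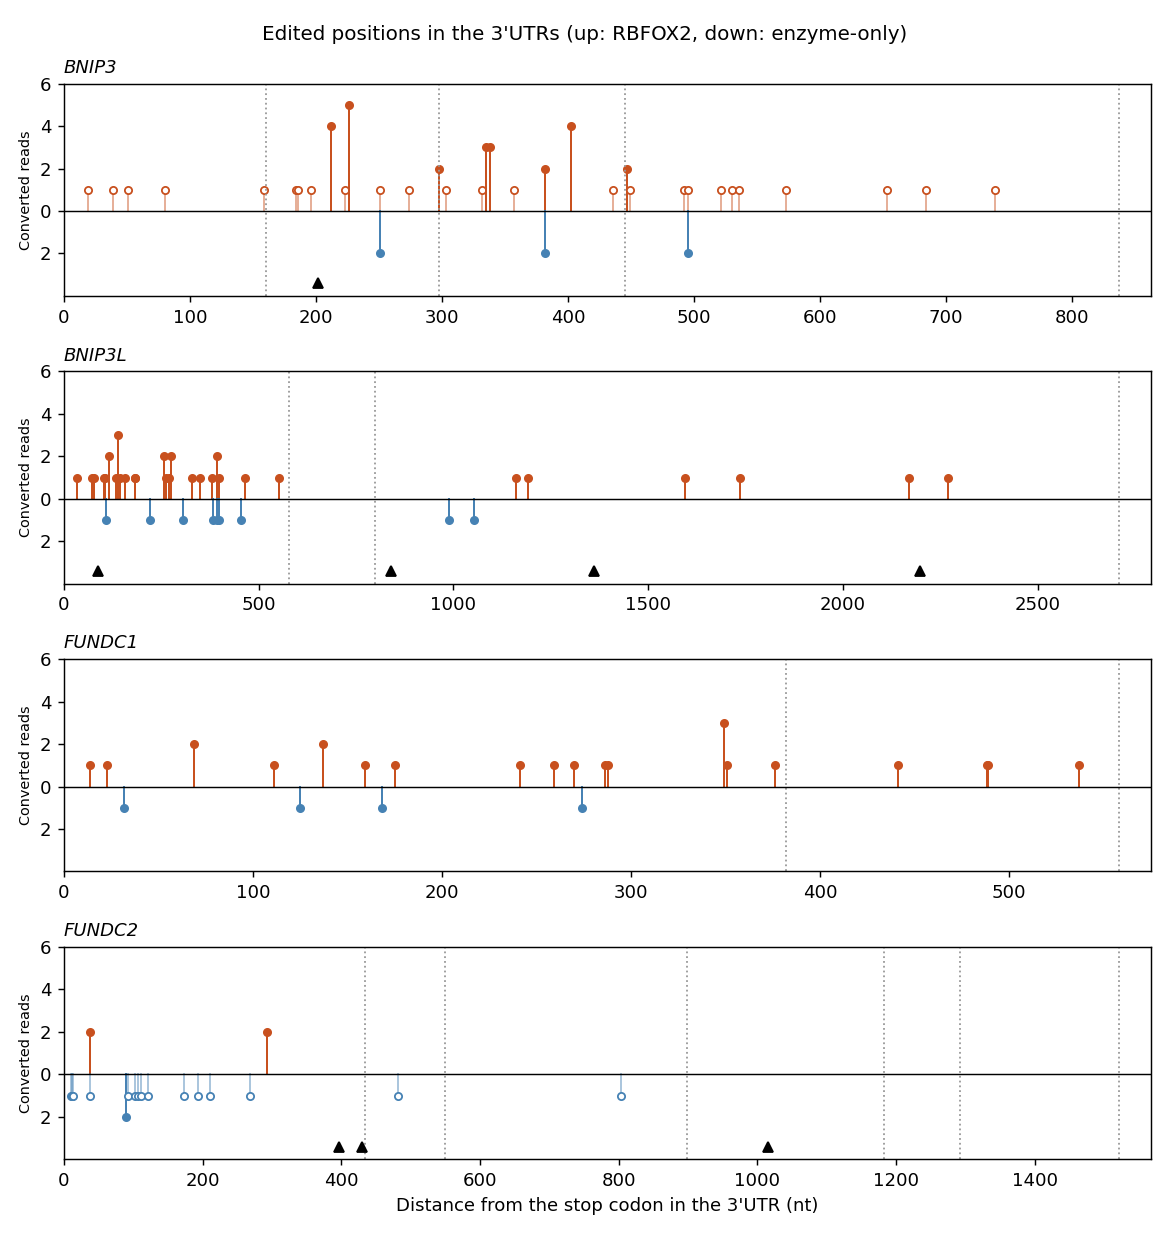
Converted reads (y axis) at each edited position of the 3′UTRs against the distance from the stop codon in nt (x axis), RBFOX2 upwards and enzyme-only downwards; filled circles met the common minimum and open circles did not, triangles mark GCAUG and dotted lines the ends of isoform models, and the axis of FUNDC2 stops at the end of its longest model, within an annotated 3′UTR of 5632 nt. The tall RBFOX2 stems of BNIP3 stood between 212 and 447 nt, and those of BNIP3L and FUNDC1 were spread over the first part of their 3′UTRs.

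BNIP3L lies on chromosome 8, plus strand, 26383054 to 26505636 (ENSG00000104765.16), and its isoform models ended at 26413120. Its 3′UTR of 2715 nt was edited mainly near the stop codon. In the first 579 nt, which all 4 isoform models held, 23 of 112 cytosines were edited with RBFOX2 (20.5%) and 7 with enzyme-only (6.25%). In the next 219 nt none of 29 cytosines was edited in either library. In the last 1910 nt, held by 2 of the 4 models, 6 of 298 were edited with RBFOX2 (2.01%) and 2 with enzyme-only (0.671%). The RBFOX2 count was about 3 times the enzyme-only count both near the stop codon and far from it. The position with 3 converted reads lay 138 nt after the stop codon, and the 4 other 3′UTR positions with 2 lay between 116 and 392 nt.

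FUNDC1 lies on the X chromosome, minus strand, 44523639 to 44542859 (ENSG00000069509.6), with 5 exons and a 3′UTR of 559 nt. Edited positions were found along the whole 3′UTR in the RBFOX2 library. In the first 382 nt, which all 10 isoform models held, 15 of 66 cytosines were edited with RBFOX2 (22.7%) and 4 with enzyme-only (6.06%). In the last 176 nt, held by 5 models, 4 of 16 (25.0%) and 0 were edited. No position of FUNDC1 was shared by the libraries, a count without its share over all genes. An RBFOX2 position, 44523928, lay 4 nt from an enzyme-only position, 44523924. The RBFOX2 shares of the common and the extended part of this 3′UTR were alike, while in BNIP3L the shares of both libraries were lower in the extended part.

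FUNDC2 lies on the X chromosome, plus strand, 155025980 to 155060304 (ENSG00000165775.18), and its 14 isoform models ended at 155056193. Its annotated 3′UTR of 5632 nt was covered by the models only over the first 1521 nt. At the common minimum 2 RBFOX2 positions and 1 enzyme-only position lay there, of 113 cytosines in the first 434 nt. The RBFOX2 positions were 37 and 293 nt after the stop codon and the enzyme-only position 90 nt. Each was converted in 2 reads. In the first 434 nt the enzyme-only table listed 14 positions, 13 of them with 1 converted read and thus below the minimum. The RBFOX2 table could not list such positions, so the listed counts of FUNDC2 cannot be set against each other.

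RBFOX2 binds UGCAUG, and that motif was rare in the 4 mRNAs. Searched on the transcribed strand of the exons, UGCAUG occurred once in BNIP3L, once in FUNDC2 and in neither BNIP3 nor FUNDC1. None of the 76 RBFOX2 positions and none of the 28 enzyme-only positions lay within 50 nt of UGCAUG, shares of 0 with upper limits of 4.74% and 12.3%. Of all exonic cytosines of the loci 1.28% lay that near. Over all listed genes 4.03% of the positions of the RBFOX2 library and 2.59% of those of the enzyme-only library did.

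The shorter GCAUG, which is contained in UGCAUG, occurred 3 times in BNIP3, 5 times in BNIP3L, 4 times in FUNDC2 and not in FUNDC1. Within 50 nt of it lay 15 of 76 RBFOX2 positions (19.7%, 11.5 to 30.5) and 4 of 28 enzyme-only positions (14.3%, 4.03 to 32.7), against 11.1% of the exonic cytosines. Both intervals overlapped, and over all listed genes the shares were 9.87% and 8.30%. BNIP3L held 11 of the 15 RBFOX2 positions near GCAUG, of its 38, and 2 of its 14 enzyme-only positions, against 14.0% of its cytosines. In the 3′UTR of BNIP3L, GCAUG began 87 nt after the stop codon and had 7 RBFOX2 positions and 1 enzyme-only position within 50 nt. In BNIP3, the GCAUG of the first window above, 131968318 to 131968322, lay 6 and 20 nt from the positions with 4 and 5 converted reads. It had 8 listed RBFOX2 positions within 50 nt, 2 of them at the minimum, and 1 enzyme-only position. In FUNDC2, the GCAUG at the end of the coding sequence had the RBFOX2 position 17 nt before it and the enzyme-only position 7 nt before it. Only UGCAUG and GCAUG were searched. The paper also counts GCACG and secondary motifs such as GCUUG, so FUNDC1 cannot be said to lack RBFOX2 motifs. A match describes letters within a window and was not measured as binding.

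APOBEC1 is known to prefer a cytosine after A or U, and the positions of both libraries had that sequence. In the RBFOX2 library 64 of 76 positions (84.2%, 74.0 to 91.6) followed A or U, and in the enzyme-only library 21 of 28 (75.0%, 55.1 to 89.3). Of all exonic cytosines of the loci 50.9% did. Both intervals lay above that share and overlapped each other. Over all listed genes the shares were 73.0% and 66.6%. By gene, the RBFOX2 counts were 9 of 10 in BNIP3, 30 of 38 in BNIP3L, 22 of 25 in FUNDC1 and 3 of 3 in FUNDC2.

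The 18 coding positions of the RBFOX2 library would leave the amino acid as it is in 9 cases, change it in 8 and make a stop codon in 1. The 10 of the enzyme-only library would do so in 3, 6 and 1. In BNIP3 both RBFOX2 coding positions at the minimum lay in exon 5, in the third window above. They are 131970662, which gives S172F, and 131970660, which gives H173Y (the residue in the reference, its place counted from the first methionine, and the residue after editing). Both codons belong to the transmembrane segment of BNIP3, whose serine and histidine are known to pack against each other in the dimer. Each was converted in 2 of 445 reads (0.449%, 0.0545 to 1.61), and neither was listed in the enzyme-only library. In BNIP3L, the RBFOX2 positions converted in 2 reads give H92Y and S164F.

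The stop codons were in BNIP3L and rested on 1 converted read each. They were Q99* for RBFOX2 and Q84* for enzyme-only. In FUNDC1 the RBFOX2 positions of the sixth window give D10D and D15D, both silent, in the N-terminal cytosolic part that holds the LC3-binding motif. Another position in that exon, 44542059, was converted in 2 of 152 reads and gives T24I. The 3 enzyme-only coding positions of FUNDC1 all change an amino acid, L86F, A117V and S155F, with 1 converted read each. FUNDC2 had F180F among its RBFOX2 positions and P155L and L184L among the enzyme-only ones, with 2 converted reads each.

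Across isoform models the edited share of exonic cytosines, the editsC value of the study, followed the genes. The median over the 11 models of BNIP3 was 3.08% with RBFOX2 (range 0 to 8.18) and 0.836% with enzyme-only (0 to 1.82), and it was higher in RBFOX2 in 10 models. The exception, PB.31294.19, ended before the 3′UTR and was at 0 in both. Over the 4 models of BNIP3L the medians were 8.22% and 2.93%, and over the 10 of FUNDC1 they were 9.18% and 3.20%, with every model higher in RBFOX2. Over the 14 of FUNDC2 they were 1.05% and 0.978%, with 1 model higher in RBFOX2, PB.52781.13, and the rest equal. In BNIP3 and FUNDC1 the highest RBFOX2 value belonged to the model with 2 exons, PB.31294.13 of BNIP3 with 9 of 110 cytosines (8.18%) and PB.51210.3 of FUNDC1 with 20 of 110 (18.2%). Models of a gene share most of their positions and are not independent of each other. Reads were given per gene, so which isoform a converted read came from was not known.

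**Figure D4:**
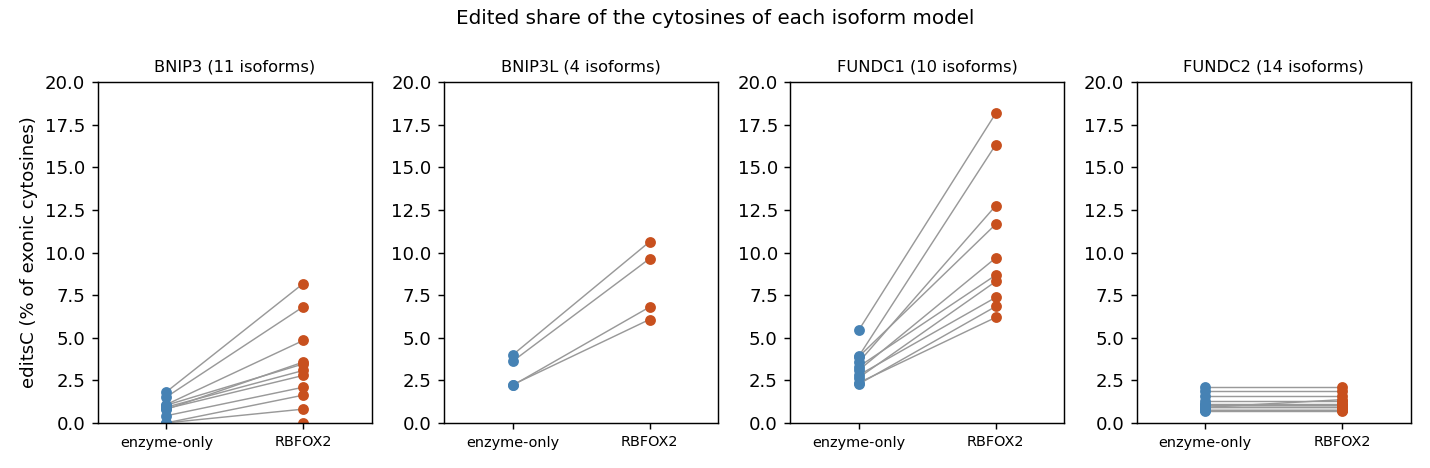
The editsC value, percent of exonic cytosines edited at the common minimum (y axis), of every isoform model in the enzyme-only and RBFOX2 libraries (x axis), with a line joining the values of 1 model. Lines rose in 10 of 11 models of BNIP3, all of BNIP3L and FUNDC1 and 1 of 14 of FUNDC2.

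Genes of like depth show what number of positions was usual. Among 304 genes with the same minimum as BNIP3 and reads within 1.5 times of its own in both libraries, the medians were 6 RBFOX2 positions and 4 enzyme-only positions, and 104 had at least the 10 of BNIP3. Among 1906 genes of the depth of BNIP3L the medians were 14 and 11, and 83 of them (4.35%) had at least its 38. Among 1933 genes of the depth of FUNDC1 the medians were also 14 and 11, and 356 (18.4%) had at least its 25. Among 349 of the depth of FUNDC2, 292 had at least its 3. By number of positions BNIP3L thus stood high in the RBFOX2 library for its depth, BNIP3 and FUNDC1 less so and FUNDC2 low. The genes were matched for reads only, not for length or cytosines. BNIP3L had 630 exonic cytosines and FUNDC1 401, and 6.03% and 6.23% of them were edited with RBFOX2. In the enzyme-only library 39.8% of the like genes had at least the number of BNIP3L and 67.5% at least that of FUNDC1. For BNIP3 and FUNDC2 these shares were 72.4% and 74.8%.

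The genes with the pattern most like that of BNIP3 were found by the distance between their log2 numbers of positions in the 2 libraries, over those 304 genes. PGD, an enzyme of the pentose phosphate pathway, and SQLE, an enzyme of cholesterol synthesis, each had 11 and 3 positions at a distance of 0.131. SERP1, a protein of the endoplasmic reticulum, PSMC2, a proteasome ATPase, and SLC25A10, the mitochondrial dicarboxylate carrier, were tied for the third place, with 9 and 3 positions at 0.144. The likeness rests on 2 numbers per gene.

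Other genes of mitophagy were taken from a list of 59, of which 48 were listed in either library and 28 had at least 20 positions. Of these 28, 4 were over 2-fold higher in the RBFOX2 library (14.3%) and 2 over 2-fold lower (7.14%), beside 12.8% and 11.1% of all genes. Their median log2 ratio was 0.10, beside 0.04 for all genes. The highest were ATG9A, the transmembrane lipid scramblase of the growing autophagosome, with 23 positions against 4 (log2 ratio 2.06, 0.65 to 4.19), and MUL1, a mitochondrial ubiquitin ligase, with 37 against 8 (1.82, 0.76 to 3.20). GABARAPL2, one of the proteins that mitophagy receptors bind, had 45 against 10 (1.79, 0.84 to 3.00).

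The fourth of them was MAP1LC3B, which encodes LC3B, with 63 against 18 (1.46, 0.71 to 2.33), chosen after its values were seen. At the other end, TOLLIP, a ubiquitin-binding adaptor of selective autophagy, had 7 positions against 21 (−1.84, −3.38 to −0.62). FIS1, an outer membrane protein of mitochondrial fission, had 6 against 16 (−1.67, −3.38 to −0.31). CSNK2A1, a catalytic subunit of casein kinase 2, which phosphorylates FUNDC1, had 27 against 34 (−0.65, −1.44 to 0.12), within 2-fold. Of the ATG8 proteins, GABARAP had 30 against 27 (−0.17, −0.97 to 0.64) and GABARAPL1 27 against 20 (0.10, −0.78 to 1.02), within 2-fold. HIF1A, which encodes the hypoxia factor, had 19 against 14 (0.11, −0.95 to 1.23).

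The tables held 121930 positions in 10199 genes for RBFOX2 and 103684 in 10182 genes for enzyme-only. The gene reads summed to 2431345 and 2233600. A single converted read carried 83.4% and 88.2% of the positions. All 174 listed positions of the 4 genes were cytosines on their strand in hg38. Of the markers of HEK293T cells KRT18, NEFM and NEFL were listed in both libraries, VIM only in RBFOX2 and KRT8 only in enzyme-only. UMOD, AQP2 and NPHS1 of the adult kidney, PTPRC of leukocytes and ALB of hepatocytes were listed in neither. A gene without a listed position is missing from these tables, so absence from them is not absence of its RNA. GENCODE 44 holds 48 pseudogenes of the 4 genes, mostly of BNIP3, and none of them had an isoform model here. Whether reads from them were counted with those of the genes was not tested.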

How the data were processed

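Edited positions were analysed in 1 RBFOX2 library and 1 enzyme-only library, grouped by their descriptions in the labels. Per the methods of the study, the authors aligned consensus reads to hg38 with pbmm2 and found edits with code of their own. The methods name another library kit (Kinnex) than the labels (Iso-Seq), long-read replicates and isoforms from IsoQuant. The tables used here hold 1 library per group and PacBio collapse identifiers, so they may come from another run, and the tool behind those identifiers is not given in the sources used here. The authors deposited, for each position, the count of converted reads, the count of reads of its gene, their quotient as an edit fraction, and a confidence score that was not used. The authors also deposited coordinates of isoform models, without expression values.

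Loci were named from GENCODE 44 (bedtools 2.31.1), and bases were read from hg38 with pysam 0.24.0. Intervals were computed with scipy 1.17.1 and the tables with pandas 2.3.3. A position had to lie above the fraction of 0.002 at the depth of both libraries (the common minimum). Calls needed at least 20 positions over both libraries, a listing in both and a scaled log2 ratio past 2-fold, with a pseudocount of 0.5. Coding sequence took precedence over the 3′UTR where annotations of a position differed. The script for the ratio was tested on simulated data. Alternatives were the counts as listed, at least 2 converted reads, other scaling, pseudocount, windows and position minimums. A further alternative left out shared positions, those listed in both libraries at any count. Removal of known variants was not repeated.

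Named genes were the 4 genes, the 3 highest and the 3 lowest of the other mitophagy genes with at least 20 positions, and the 3 nearest to BNIP3 with ties. GABARAP, GABARAPL1, MAP1LC3B and HIF1A were added after their values were seen. The genes and lists were chosen with earlier results of these data known.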

Additional observations from a re-analysis of the deposited data

How the results depend on the processing

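Of 73 alternative values, 58 equalled the value reported, stayed within a counting interval or, for counts of genes, stayed within 1.5 times of it. For editsC that interval was the one of the whole gene. Some of the 58 could not move. The minimum of BNIP3L and FUNDC1 was 1 converted read, so their counts as listed were the same counts. The minimum of BNIP3 and FUNDC2 was already 2, so requiring 2 left their counts as they were. The 58 are therefore no measure of stability. Only the position ratios of BNIP3L and FUNDC1 were called, so only these could reverse direction, and neither did. Intervals from few positions are wide, and the 3.69 of BNIP3 as listed still fell within its interval of −0.54 to 3.91. Without the common minimum, FUNDC2 moved to a log2 ratio of −3.36 in positions (3 against 30) and −2.73 in converted reads. The median editsC then moved to 16.3% for BNIP3 in the RBFOX2 library and 9.49% for FUNDC2 in the enzyme-only library. The ratio of BNIP3 was 3.69 as listed and 0.73 (−1.08 to 3.38) with at least 2 converted reads in every gene. With shared positions left out, 9 of its positions against 0 remained, where shared meant listed in both libraries at any count. Of its enzyme-only positions, 131968273 and 131968029 were left out for 1 RBFOX2 read each. That read lay below the minimum and could not be listed in the enzyme-only library, so the 9 and 0 are not a like comparison. With at least 2 converted reads BNIP3L stood at 3.05 (7 against 0) and FUNDC1 at 2.31 (4 against 0). Both values depend on the pseudocount, their intervals included 0 and neither gene kept its call, while 70 genes were over 2-fold higher and 24 lower among 418.

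Scaled by gene reads, 641 genes were higher and 269 lower, beside 471 and 411 with the library totals. With at least 10 positions 860 were higher and 785 lower, and with at least 50 there were 85 and 86. The mitophagy list gave 7 higher and 3 lower of 37 genes with at least 10 positions (18.9% and 8.11%), in place of 4 and 2 of 28. Over all 5556 genes at that minimum the shares were 15.5% and 14.1%. With GCAUG in place of UGCAUG the shares near the motif moved to 19.7% and 14.3%. The converted reads of BNIP3 with shared positions left out gave no ratio, since all its enzyme-only positions were listed in the RBFOX2 library at some count. No paired analysis was possible because each group held a single library and the labels gave these different replicate numbers. With 1 library each analysed here, no difference has a replicate check. Depth limits BNIP3 and FUNDC2 most, where 13 and 6 positions met the minimum.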

Other observations

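Coding positions below the common minimum were also mapped. BNIP3 had 14 more in the RBFOX2 library, each with 1 converted read, which brought its coding positions to 16, of which 6 were silent and 10 changed an amino acid. Among them, L171L lay next to the pair S172F and H173Y, and P167L and I177I lay on either side of it in exon 5. T188I and T189I fell in exon 6, close to the end of the protein of 194 residues. FUNDC2 had 10 more in the enzyme-only library, also with 1 converted read each, and 1 of them, Q120*, makes a stop codon. L118F and L119F stood in the codons before it. The other library could not list positions of 1 converted read in either gene, so these values have no counterpart.

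Among mitophagy genes with 10 to 19 positions, 4 were past 2-fold, 3 higher and 1 lower in RBFOX2. The shares of all genes past 2-fold were not computed for that band alone. Of the 37 list genes with at least 10 positions 18.9% were higher and 8.11% lower, beside 15.5% and 14.1% of all genes. VDAC2, an outer membrane channel, had 14 against 1 (log2 ratio 2.95, 0.77 to 8.89). ATG7, the activating enzyme of the ATG8 and ATG12 conjugation systems, had 12 against 1 (2.74, 0.51 to 8.68). ATG13, a subunit of the ULK1 complex, had 16 against 3 (1.91, 0.29 to 4.51). These intervals lay above 0 but rest on 1 to 3 enzyme-only positions. RHOT1, the mitochondrial GTPase Miro1, had 3 against 8 (−1.60, −4.29 to 0.32). The 4 genes were chosen after their values were seen.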
